A study of Homo sapiens with 16 samples.

Results

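SAOS cells that carried mouse SMYD2 were compared with and without human RB, which gives the response to RB on a background of overexpressed SMYD2. The comparison takes 8 of the 16 arrays of the study: the 4 titled as RB with SMYD2 and the 4 titled as SMYD2, in each group the replicate numbers 1, 3, 4 and 5. SAOS is a human osteosarcoma cell line without functional RB, so the only working RB in these cells is what the transfected plasmid gives. Both groups were transiently transfected with mouse SMYD2, a lysine methyltransferase for which RB is a known substrate, and 1 of them with human RB1 as well. The study also holds 4 arrays of cells without transfection and 4 of cells given RB alone, used here only where the response to RB is set beside its counterpart without SMYD2. No group with an empty vector is named, so the groups may also differ in the DNA they received, and the share of cells that took up each plasmid is not given. All cells are of 1 line, and nothing in the labels says that the arrays of a group came from separate cultures. The p-values therefore measure only the spread between these arrays, which may be technical.

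RB is a pocket protein. In its active state it binds the E2F transcription factors and keeps silent the genes that a cell needs to enter S phase. A related repressor, the DREAM complex of the pocket proteins p107 and p130 with E2F4 and the MuvB core, acts on the same early genes through E2F sites and on genes of G2 and mitosis through a promoter element called CHR. RB also works with RUNX2 in bone cells, where it is linked to osteoblast differentiation.

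Transcripts were read on Affymetrix arrays, and each gene is represented by 1 probe set, its brightest. All levels below are log2 signals from the deposited table, and all differences are RB plus SMYD2 minus SMYD2 alone on the same scale, ± the standard error of a limma fit with 4 arrays per group and the replicate number as a block. Same-numbered arrays of the 2 groups are called pairs. A gene passed when limma's adjusted p over all 19775 genes was under 0.05, and "rose" and "fell" are used only for genes that passed. The medians of these 8 arrays lay between 5.599 and 5.644, and the correlation of arrays within a group, over all probe sets, was 0.981 to 0.997. SMYD2 array 1 stood apart from the others. It correlated at 0.981 to 0.989 with the other SMYD2 arrays, while arrays within the RB plus SMYD2 group correlated at 0.994 or more, and some genes, such as CCNB1, CENPA and THBS1, read far lower on it. Without its pair 2496 genes passed in place of 1475. Its ACTB signal near the 3′ end exceeded that near the 5′ end by 3.53, against 0.55 to 1.58 on the other 7 arrays, a measure of RNA integrity, while the same measure for GAPDH was -0.01 to 0.16 on all 8. The markers of the osteoblast line were present, with 7 of 8 at a mean of at least 6 in both groups (RUNX2, ALPL, SP7, COL1A1, COL1A2, IBSP and CDH11). Of the markers of immune, endothelial, epithelial, adipocyte, chondrocyte and muscle cells, 1 to 3 per list reached that level, and 0 in any of these lists passed the test.

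The promoters of the genes at both ends of the response are shown here because the elements that E2F and MuvB complexes bind can be looked for in them. They were read from RefSeq (GRCh38.p14) as 250 bases before to 50 bases after the annotated start, on the strand of the gene, and are the largest decreases and the largest increases with an entry. SKA1 lies at chr18:50374796-50375095, MND1 at chr4:153344438-153344737, SPC25 at chr2:168890381-168890680, SPC24 at chr19:11155733-11156032, H2BC4 at chr6:26123877-26124176 and H4C8 at chr6:26285485-26285784, with SPC25, SPC24, H2BC4 and H4C8 on the minus strand. MND1 has 2 annotated starts, of which the first listed is shown. Capitals mark matches on either strand to an E2F motif, which was searched for as TTGGCGC and as its variants with the middle letters changed, namely the form TTCCCGC or the form TTGCCGC or else the form TTCGCGC. They also mark the CHR, spelled TTTGAA here, the box that is read as CCAAT by the factor NF-Y, and the TATA box, spelled TATAAA here, and an E2F match can share letters with a CCAAT match.
SKA1: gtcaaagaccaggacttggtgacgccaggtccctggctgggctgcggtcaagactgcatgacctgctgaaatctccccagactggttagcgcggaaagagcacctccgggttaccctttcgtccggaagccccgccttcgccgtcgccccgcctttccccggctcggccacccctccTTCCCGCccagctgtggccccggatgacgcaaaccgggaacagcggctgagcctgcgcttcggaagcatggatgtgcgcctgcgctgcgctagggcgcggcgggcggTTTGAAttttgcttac
MND1: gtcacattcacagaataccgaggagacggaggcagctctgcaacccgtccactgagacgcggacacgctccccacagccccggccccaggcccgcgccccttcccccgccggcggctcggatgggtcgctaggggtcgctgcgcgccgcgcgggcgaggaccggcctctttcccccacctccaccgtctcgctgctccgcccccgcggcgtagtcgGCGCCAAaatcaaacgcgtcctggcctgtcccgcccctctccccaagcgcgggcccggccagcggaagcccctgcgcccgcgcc
SPC25: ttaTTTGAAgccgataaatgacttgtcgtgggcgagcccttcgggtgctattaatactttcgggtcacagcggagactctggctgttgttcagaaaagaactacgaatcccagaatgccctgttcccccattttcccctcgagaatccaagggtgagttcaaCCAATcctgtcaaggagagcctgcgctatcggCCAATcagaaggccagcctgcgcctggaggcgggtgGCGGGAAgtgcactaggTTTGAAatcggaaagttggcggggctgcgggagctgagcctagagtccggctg
SPC24: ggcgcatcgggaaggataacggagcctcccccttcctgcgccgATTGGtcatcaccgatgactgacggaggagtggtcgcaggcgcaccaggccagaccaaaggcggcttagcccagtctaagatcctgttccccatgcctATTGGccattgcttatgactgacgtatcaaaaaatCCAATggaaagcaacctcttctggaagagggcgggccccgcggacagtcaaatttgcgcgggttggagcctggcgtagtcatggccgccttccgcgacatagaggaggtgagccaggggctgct
H2BC4: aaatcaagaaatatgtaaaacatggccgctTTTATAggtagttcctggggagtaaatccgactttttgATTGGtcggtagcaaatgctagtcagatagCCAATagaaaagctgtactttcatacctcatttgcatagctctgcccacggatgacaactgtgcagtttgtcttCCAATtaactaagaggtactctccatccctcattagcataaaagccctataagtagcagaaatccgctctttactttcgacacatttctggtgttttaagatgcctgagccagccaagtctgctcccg
H4C8: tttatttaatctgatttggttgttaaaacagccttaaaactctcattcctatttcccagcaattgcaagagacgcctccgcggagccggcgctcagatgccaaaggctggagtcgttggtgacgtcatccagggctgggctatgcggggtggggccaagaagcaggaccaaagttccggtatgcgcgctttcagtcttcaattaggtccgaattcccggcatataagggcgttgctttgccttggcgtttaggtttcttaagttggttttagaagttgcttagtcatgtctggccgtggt
In SKA1 an E2F match began at -73, counted from the start, and a CHR match at position 35 of the transcript. MND1 had an E2F match at -34. In SPC25 an E2F match stood at -20 and a CHR match at -3, next to each other, with CCAAT matches at -88 and -56 and a further CHR match at -247. SPC24 held 3 CCAAT matches and neither of the other cell cycle elements. The promoter of the histone gene H2BC4 held 3 CCAAT matches and a TATA match at -220, and that of H4C8 held no match to these letters.

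The transfected RB was visible in every pair. The brighter RB1 probe set read 7.90, 7.90, 9.25 and 9.62 on arrays 1, 3, 4 and 5 with RB plus SMYD2, and 6.89, 6.59, 6.98 and 6.92 with SMYD2 alone. Each RB array lay above every SMYD2 array, and arrays 4 and 5 with RB stood well above arrays 1 and 3. The difference was 1.82 ± 0.24 (two-sided exact permutation p = 0.0286, the lowest possible with 4 arrays a side; limma adjusted p = 0.00323). The dimmer RB1 probe set read 3.51 ± 0.09 (SD, n = 4) against 3.44 ± 0.07 and did not separate the groups (exact permutation p = 0.229). SMYD2 read 10.16, 10.20, 10.18 and 10.18 with RB and 10.19, 10.29, 10.27 and 10.36 without, nearly level, at a difference of -0.10 ± 0.08 (limma adjusted p = 0.564). The plasmid carried mouse SMYD2, which human probes may not read, so this does not check that label. L3MBTL1, a reader of methylated lysine that can bind methylated RB, differed by -0.01 ± 0.10 and was higher in 2 of 4 pairs. Among the 10 SMYD family and methyl-lysine genes 0 passed, the largest difference being -0.45 ± 0.12 for SMYD4.

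Adding RB to cells that carried SMYD2 lowered genes of nearly every step of the cell division cycle, from origin licensing to cytokinesis, and raised 11 of 37 replication-dependent histone genes and 8 of 24 osteoblast genes. Of the 19775 genes, 1475 passed, which is 7.46% of those tested. Of these, 656 were higher (3.32%) and 819 lower (4.14%). The median over all genes was 0.01. The genes that passed moved by a median of 0.50 upward and -0.54 downward, and 40 rose and 47 fell by at least 1, a change in signal of at least 2-fold. In 1468 of the 1475, 4 of 4 pairs went the same way, which the choice of genes by a fit to these same pairs favours. In 1099 the arrays of the groups did not overlap, against 2382 genes (12%) without overlap among all tested. Without the pair 1, 3, 4 or 5, limma called 2496, 527, 640 and 420 genes, and without the block 748, of which 745 were among the 1475.

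**Figure D1:**
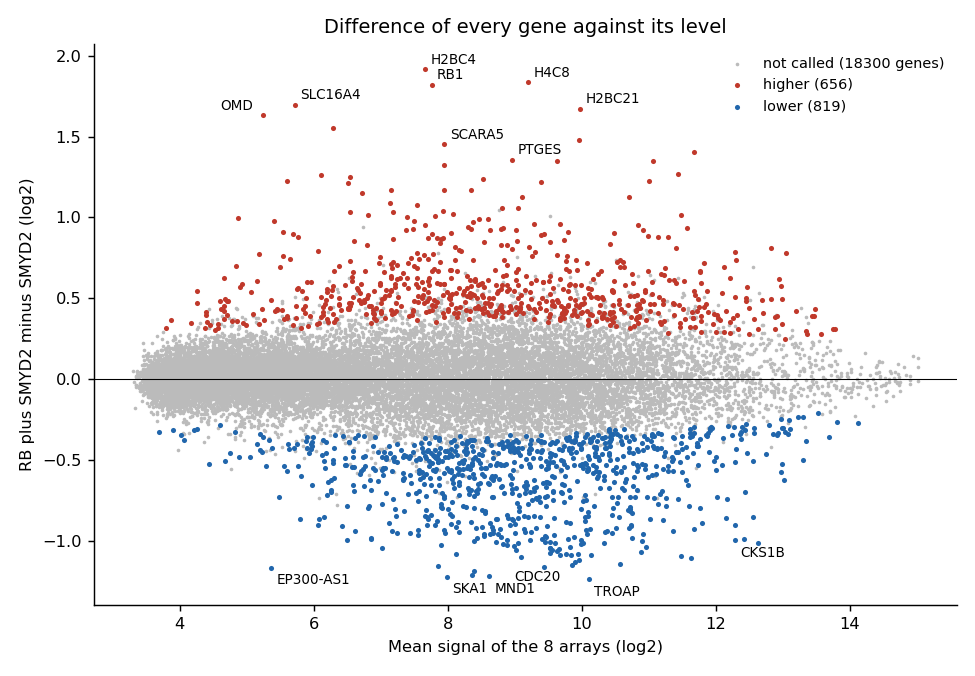
Difference between RB plus SMYD2 and SMYD2 alone (vertical axis, log2) against the mean signal of the 8 arrays (horizontal axis, log2) for 19775 genes. Each point is a gene, red for the 656 that rose, blue for the 819 that fell and grey for the others, and the histone genes H2BC4, H4C8 and H2BC21 stand at the top between 1.67 and 1.92.

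Most measured genes of the mitotic apparatus fell, among them 12 of 13 genes of the outer kinetochore. TROAP, a microtubule-associated protein of the spindle, read 9.43, 9.76, 9.36 and 9.37 with RB and 10.82, 10.74, 10.63 and 10.68 without. It was the largest decrease, 1.24 ± 0.09 or 2.36-fold (limma adjusted p = 0.000796), and the groups were far apart. SKA1, which couples kinetochores to shortening microtubules, read 7.04, 7.68, 7.57 and 7.20 against 8.66, 8.36, 8.70 and 8.65. It fell by 1.23 ± 0.15, with RB arrays spread over a wider range than SMYD2 arrays. SPC25, a subunit of the NDC80 complex that holds the microtubule end, read 7.85, 8.06, 7.72 and 7.37 against 9.18, 9.17, 8.67 and 8.82. SPC24, its partner in that complex, read 7.998, 7.96, 7.69 and 7.54 against 9.28, 8.999, 8.73 and 8.94. They fell by 1.21 ± 0.11 and 1.19 ± 0.10 with no overlap, although only 1 of the 2 probe sets of SPC24 fell. Among 13 genes of the outer kinetochore 12 fell and 0 rose, with a median of -0.80, where the background of genes called lower is 4.14%. In cultures analysed as a whole, fewer cells in a phase of the cycle and less RNA per cell cannot be told apart.

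Of 17 centromere proteins measured, 14 fell and 0 rose, with a median of -0.83. CENPM, a centromere protein, read 9.38, 9.69, 9.21 and 9.07 with RB and 10.72, 10.58, 10.25 and 10.31 without, and fell by 1.13 ± 0.10. CENPN and CENPW, which help to build the inner kinetochore on centromeric chromatin, fell by 1.09 ± 0.10 and 1.09 ± 0.09. OIP5, which helps to load new CENPA, fell by 1.08 ± 0.11. Their arrays did not overlap. CENPA itself, the histone H3 variant that marks the centromere, fell by 0.74 ± 0.18, but was not lower in pair 1, where SMYD2 array 1 read 8.96 against 9.85 to 10.07 on the other SMYD2 arrays. It did not pass without the block. Without pair 3, 9 of the 17 centromere genes fell, in a fit that called 318 of all genes lower in place of 819.

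Most motors and kinases of mitosis fell as well. Of 13 mitotic kinesins 12 fell and 0 rose, with a median of -0.97. KIF4A, a chromosome-arm motor, fell by 1.08 ± 0.12, KIFC1, a minus-end motor that bundles spindle poles, by 1.04 ± 0.09, KIF2C, a microtubule depolymerase, by 1.04 ± 0.11 and KIF22 by 1.02 ± 0.10. AURKA, the kinase of spindle poles, read 9.97, 10.32, 9.78 and 9.88 with RB against 10.95, 11.06, 11.24 and 11.29 without. It fell 2.21-fold, by 1.15 ± 0.13, with a gap between the groups wider than the range within either. Of 16 mitotic kinases and checkpoint genes 11 fell and 0 rose, with a median of -0.92. In that list BUB1 and TTK, kinases of the spindle checkpoint, fell by 1.08 ± 0.16 and 1.05 ± 0.13, and AURKB, the kinase of the chromosomal passenger complex, by 1.06 ± 0.09.

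CDC20, the activator of the anaphase-promoting complex, read 9.33, 9.45, 9.21 and 9.13 with RB against 10.21, 10.38, 10.66 and 10.45 without. It fell by 1.15 ± 0.12, again with every RB array below every SMYD2 array. Among 12 anaphase regulators 10 fell and 0 rose, with a median of -0.97. ESPL1, which encodes separase, fell by 1.06 ± 0.11, SGO2, which shields cohesin at centromeres, by 1.07 ± 0.09 and CDCA5, the cohesion factor sororin, by 1.01 ± 0.12. Of 17 spindle and cytokinesis genes 15 fell and 0 rose, with a median of -0.89. ASPM, a spindle pole protein, read 9.22, 9.76, 9.33 and 9.29 against 9.86, 10.49, 10.85 and 10.86. It fell by 1.12 ± 0.17, and the SMYD2 arrays 4 and 5 were the highest of the 8. TACC3 and SPAG5, both spindle proteins, fell by 1.10 ± 0.10 and 1.09 ± 0.14.

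All 8 condensin genes, whose products compact mitotic chromosomes, fell, with a median of -0.78. NCAPG fell by 0.93 ± 0.11, NCAPG2 by 0.89 ± 0.13, NCAPD2 by 0.85 ± 0.09, NCAPH by 0.85 ± 0.13, NCAPH2 by 0.72 ± 0.10 and NCAPD3 by 0.64 ± 0.10. The core ATPases SMC2 and SMC4 fell by 0.72 ± 0.18 and 0.57 ± 0.15, close to the threshold (limma adjusted p = 0.0461 and 0.0484). SMC2 read 8.74 on array 1 of both groups. Neither passed without the block, nor without the pair 3, 4 or 5.

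Several regulators of these genes fell, while others did not pass. FOXM1, a transcription factor that works with MuvB on G2 and mitotic genes, read 8.81, 9.16, 8.81 and 8.62 with RB and 9.91, 9.89, 10.20 and 10.04 without. It fell 2.24-fold, by 1.16 ± 0.12 (limma adjusted p = 0.00129). MYBL2, the MYB protein that joins MuvB at the G1/S border, read 8.66, 9.02, 8.66 and 8.57 against 9.76, 9.67, 9.74 and 9.71. It fell by 1.00 ± 0.11, and its relative MYB by 0.85 ± 0.09. Both left a clear gap between the groups. RBL1, which encodes p107 and is itself an E2F target, fell by 0.72 ± 0.11 in its brightest probe set, while only 2 of its 4 probe sets went down. RBL2, which encodes p130, differed by 0.10 ± 0.08 (limma adjusted p = 0.552). Of 11 pocket protein, MYB and MuvB genes, 6 fell and RB1 rose.

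Among the 10 E2F family genes 4 fell and 0 rose. E2F1, the activator that RB binds, read 8.92, 8.70, 8.94 and 8.73 with RB and 9.51, 9.32, 9.39 and 9.22 without, and E2F2, another activator, read 8.31, 8.26, 8.27 and 7.99 against 9.54, 8.86, 9.13 and 9.03. They fell by 0.54 ± 0.09 and 0.93 ± 0.12, and neither overlapped between groups. E2F7 and E2F8, repressors that rise late in S phase, read 8.96, 9.28, 8.65 and 8.78 against 9.76, 9.72, 9.998 and 10.15 and 6.33, 6.67, 6.15 and 6.28 against 6.96, 7.24, 7.60 and 7.59. Both fell by 0.99 (SE 0.15 and 0.16). E2F1 did not pass without the pair 3 or 5.

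**Figure D2:**
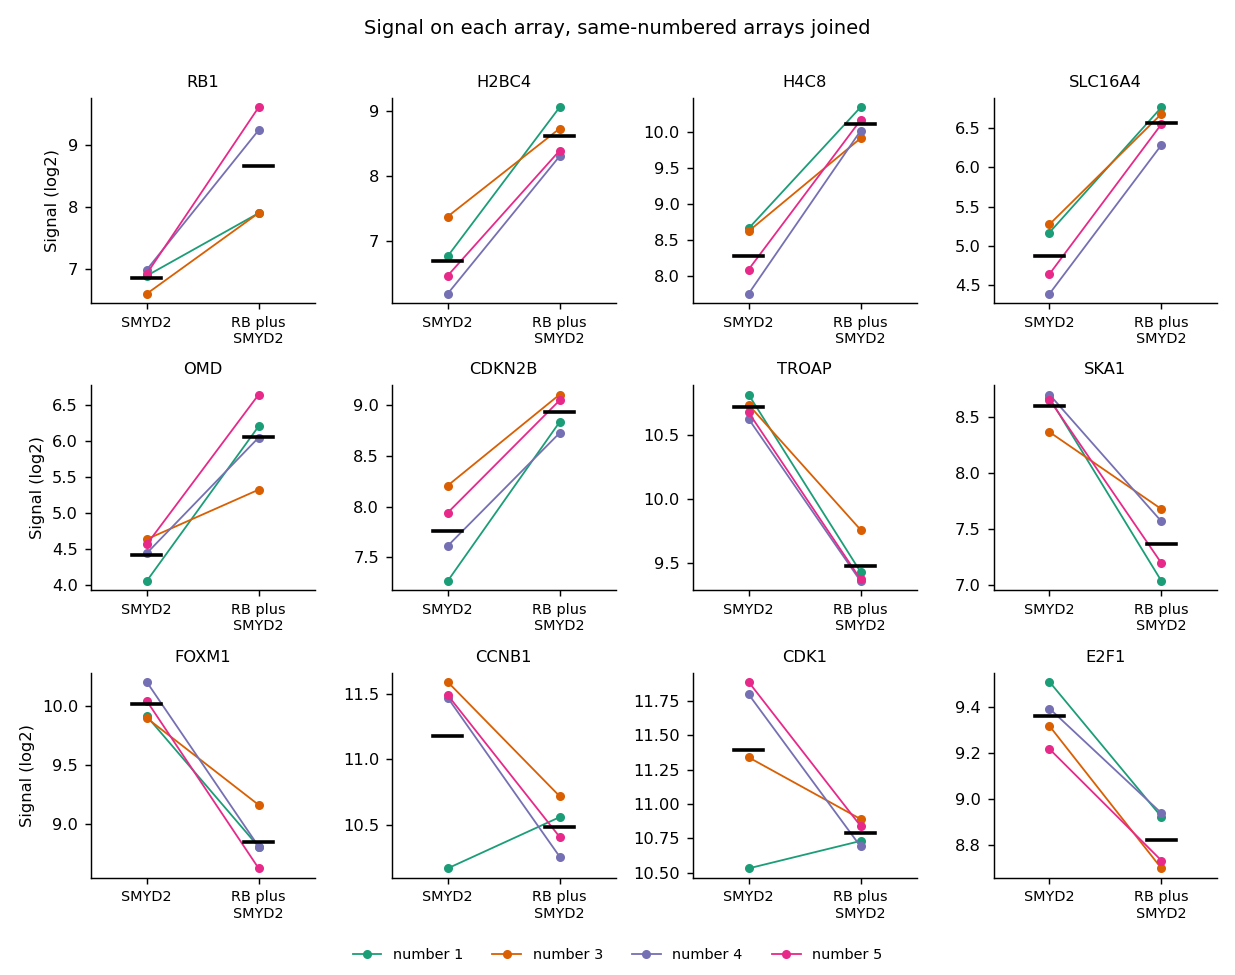
Log2 signal of 12 genes on each array (vertical axis) for SMYD2 alone and RB plus SMYD2 (horizontal axis). Each point is an array, lines join same-numbered arrays, coloured by number, and black bars are group means. CCNB1 and CDK1 are higher with RB in pair 1 and lower in the other 3 pairs, and in the other 10 genes all 4 lines go the same way.

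Cyclins and their kinases gave a mixed picture around a median of -0.66. Of 20 measured, 13 fell and 0 rose. CDC25C, the phosphatase that switches on mitotic CDK1, fell by 1.03 ± 0.19, and CKS1B and CKS2, small CDK-binding proteins, by 1.00 ± 0.09 and 0.85 ± 0.06. CCNA2, the A-type cyclin needed for S phase, read 9.23, 9.58, 9.11 and 9.38 with RB and 9.71, 10.20, 10.47 and 10.46 without, and fell by 0.88 ± 0.14. Its SMYD2 array 1 was the lowest of that group. CCNE2 and CCNE1, the cyclins of S phase entry, fell by 0.69 ± 0.13 and 0.43 ± 0.09, CCNE1 only with the block, and CDK2 by 0.63 ± 0.11. Without the pair 3, 4 or 5, 8, 8 and 6 of the 20 fell. Among all genes these fits called 318, 394 and 263 lower, in place of 819.

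CCNB1, the mitotic cyclin, read 10.56, 10.72, 10.26 and 10.41 with RB and 10.17, 11.59, 11.47 and 11.49 without. SMYD2 array 1 was the lowest of all 8 arrays and the other SMYD2 arrays were the highest. The difference was -0.69 ± 0.22 and did not pass (limma adjusted p = 0.104), but did without pair 1. CDK1, its kinase, read 10.73, 10.89, 10.69 and 10.84 against 10.53, 11.34, 11.80 and 11.89, the same arrangement. It differed by -0.60 ± 0.19 (limma adjusted p = 0.0984) and also passed without pair 1. The part of the high ACTB ratio of SMYD2 array 1 in these values was not tested.

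CCND1, the cyclin D1 that acts upstream of RB, read 5.45, 5.94, 5.86 and 5.81 with RB and 5.30, 5.58, 4.87 and 5.37 without, higher in 4 of 4 pairs at 0.48 ± 0.13, just short of the threshold (limma adjusted p = 0.0547). It passed without pair 1. CDKN2B, which encodes the CDK4 and CDK6 inhibitor p15, read 8.84, 9.11, 8.73 and 9.05 against 7.27, 8.21, 7.61 and 7.94. It rose 2.25-fold, by 1.17 ± 0.12 (limma adjusted p = 0.00121), with no overlap, and was the only one of 6 measured CDK inhibitor genes to rise. CDKN2D, which encodes p19, fell by 0.61 ± 0.10, although 1 of its 2 probe sets did not go down, and it did not pass without the pair 3 or 5. CDKN1A, CDKN1B, CDKN1C and CDKN2A, the genes of p21, p27, p57 and p16, differed by -0.21 ± 0.11, -0.10 ± 0.09, 0.16 ± 0.22 and -0.12 ± 0.09. They did not pass.

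Most genes that prepare and copy DNA fell, with list medians of -0.66 to -0.75. Of 24 genes of origin licensing and firing 21 fell and 0 rose, with a median of -0.75. MCM10, which helps to activate the replicative helicase, read 7.96, 8.30, 8.33 and 8.26 with RB and 8.35, 8.93, 9.81 and 9.79 without. It fell by 1.01 ± 0.19, most in pairs 4 and 5, whose SMYD2 arrays were the highest. ORC1, of the origin recognition complex, fell by 0.97 ± 0.13, CDT1, a loader of the helicase, by 0.96 ± 0.10, GINS2, a subunit of the active helicase, by 0.94 ± 0.09 and CDC6, another loader, by 0.87 ± 0.21. MCM2 and MCM5, helicase subunits, fell by 0.74 ± 0.08 and 0.82 ± 0.08. MCM10, MCM5 and CDC6 did not pass without the block, and without pair 5, 13 of the 24 fell. The fit without pair 5 called 263 of all genes lower, in place of 819.

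Of 28 genes of DNA synthesis and the replication fork 20 fell and 0 rose, with a median of -0.67. WDHD1, a fork protein, fell by 0.91 ± 0.10, LIG1, the ligase of Okazaki fragments, by 0.90 ± 0.09, CHAF1A, a chromatin assembly factor, by 0.87 ± 0.09 and TIMELESS, which protects the fork, by 0.85 ± 0.08. PCNA, the sliding clamp, read 11.84, 11.84, 11.63 and 11.57 against 12.14, 12.45, 12.27 and 12.27 and fell by 0.56 ± 0.08. In 10 genes of nucleotide supply 7 fell, with a median of -0.66. TK1, the thymidine kinase, fell by 0.95 ± 0.12, RRM2 and RRM1, the subunits of ribonucleotide reductase, by 0.93 ± 0.15 and 0.74 ± 0.09, DTYMK by 0.78 ± 0.08 and TYMS, thymidylate synthase, by 0.70 ± 0.11. RRM2B, the alternative subunit that p53 controls, went the other way at 0.35 ± 0.11 and did not pass (limma adjusted p = 0.108). Without pair 5, 11 of the 28 DNA synthesis genes fell, where the calls of lower genes over all genes were 263 in place of 819.

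Among DNA repair genes, 11 of 16 of homologous recombination, 7 of 12 of crosslink repair and 1 of 4 of mismatch repair fell. MND1, which pairs with PSMC3IP to promote strand exchange and is best known from meiosis, read 7.95, 8.28, 7.90 and 7.90 with RB and 9.44, 9.22, 9.10 and 9.14 without. It fell 2.33-fold, by 1.22 ± 0.11, with RB array 3 above the other RB arrays and still below every SMYD2 array. Of 16 homologous recombination genes 11 fell and 0 rose, with a median of -0.68. RAD54L and RAD54B, motor proteins of strand exchange, fell by 0.96 ± 0.11 and 0.80 ± 0.15, and the helicase gene BLM by 0.95 ± 0.14. Of 12 Fanconi anaemia genes, whose products repair DNA crosslinks, 7 fell, with a median of -0.47. FANCI, which is ubiquitinated together with FANCD2 at the crosslink, fell by 1.05 ± 0.11, UBE2T, the enzyme that transfers the ubiquitin, by 0.87 ± 0.08, BRIP1 by 0.86 ± 0.11 and FANCG by 0.70 ± 0.10. Of 4 mismatch repair genes MSH6 fell by 0.40 ± 0.09, and MLH3, PMS1 and MSH3 differed by 0.18 ± 0.12, 0.13 ± 0.10 and 0.08 ± 0.11. Without the pair 3, 4 or 5, 6, 5 and 5 of the homologous recombination genes fell. For the Fanconi genes the counts were 5, 4 and 4, and for mismatch repair 0 in each case. For all genes they were 318, 394 and 263, in place of 819.

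Among 12 checkpoint kinases and mediators 5 fell and 0 rose. CLSPN, the mediator claspin, fell by 0.81 ± 0.15, CHEK1, the kinase it activates, by 0.69 ± 0.16, TOPBP1, which activates ATR, by 0.57 ± 0.09 and MDC1, a mediator at DNA breaks, by 0.50 ± 0.09. Without the pair 3, 4 or 5, 3, 1 and 0 of the 12 fell. Calls of lower genes also dropped over all genes in these fits, from 819 to 318, 394 and 263.

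Some chromatin and nuclear envelope genes fell. Of 14 genes of DNA methylation and silencing 7 fell and 0 rose, with a median of -0.37. SUV39H1, a histone H3 lysine 9 methyltransferase, fell by 0.86 ± 0.10, HELLS, a remodeller, by 0.79 ± 0.16, EZH2, the enzyme of Polycomb complex PRC2, by 0.78 ± 0.10 and UHRF1, which guides maintenance methylation, by 0.73 ± 0.11. In the nuclear lamina list 5 of 8 fell. TMPO fell by 0.90 ± 0.09, LMNB2 by 0.67 ± 0.08, LMNB1, whose loss marks senescent cells, by 0.63 ± 0.13, LBR by 0.58 ± 0.11 and BANF1 by 0.54 ± 0.13. LMNA, the gene of lamins A and C, differed by -0.00165 and LEMD3 by -0.00185, and EMD by -0.18 ± 0.08. They did not pass. Without the pair 3, 4 or 5, 3, 2 and 3 of the lamina genes and 5, 4 and 3 of the silencing genes fell. Lower calls over all genes in these fits were 318, 394 and 263, in place of 819.

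Of the replication-dependent histone genes most did not pass, and more of them rose than fell, while 5 of 9 replication-independent variants fell. The difference between these classes was not tested. The replication-dependent genes encode the bulk histones of S phase, and most of their mRNA ends in a stem-loop in place of a poly(A) tail. Whether the signals below come from mRNA with or without such a tail was not tested. Of 37 measured 11 rose and 3 fell, where 3.32% and 4.14% of all genes did, and the median was 0.08. In the fit of genes with a mean of at least 6, 19 of the 37 remained. Of these 11 rose and 0 fell, with a median of 0.46. H2BC4 read 9.05, 8.73, 8.30 and 8.39 with RB and 6.77, 7.38, 6.19 and 6.47 without. It was the largest increase of all genes, 1.92 ± 0.14 or 3.77-fold (limma adjusted p = 0.000796), and the lowest RB array lay well above the highest SMYD2 array. H4C8 read 10.35, 9.92, 10.02 and 10.17 against 8.66, 8.62, 7.75 and 8.09, and H2BC21 read 10.96, 10.56, 10.75 and 10.98 against 9.11, 9.27, 9.06 and 9.13. They rose by 1.84 ± 0.15 and 1.67 ± 0.11. H1-2, a linker histone, read 12.52, 12.43, 12.18 and 12.36 against 11.51, 11.30, 10.41 and 10.66, and H2AC6 read 11.92, 11.57, 11.67 and 11.79 against 10.05, 10.88, 10.25 and 10.36. They rose by 1.40 ± 0.13 and 1.35 ± 0.16, with no overlap for any of these genes.

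Histone genes form families of near-identical sequence, and 9 of the 37 probe sets, 5 of them among the 11 that rose, carry an ID suffix of the manufacturer for probes that may match several genes. The 3 that fell, H2AC16, H2BC11 and H3C11, are named after their values were seen. Without the pair 3, 4 or 5, 7, 7 and 6 of the 37 rose and 0, 1 and 2 fell, and without the block 8 rose and 1 fell. Of 9 replication-independent histone variants 5 fell and 0 rose, with a median of -0.27. H2AX, the variant phosphorylated at DNA breaks, fell by 0.69 ± 0.08, H1-10 by 0.60 ± 0.09 and H2AZ2 by 0.36 ± 0.08. Of 10 genes of histone mRNA processing and histone supply 4 fell and 0 rose. ASF1B, a histone chaperone, fell by 0.96 ± 0.11, CASP8AP2 and LSM11, which act in 3′ end processing of histone mRNA, by 0.64 ± 0.11 and 0.56 ± 0.11, and NASP, a chaperone, by 0.53 ± 0.07. Without the pair 3, 4 or 5, 2 of the variants fell in each case, and without pair 5, 2 of the processing genes. Across all genes the fits without the pair 3, 4 or 5 called 209, 246 and 157 higher, in place of 656. They called 318, 394 and 263 lower, in place of 819.

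**Figure D3:**
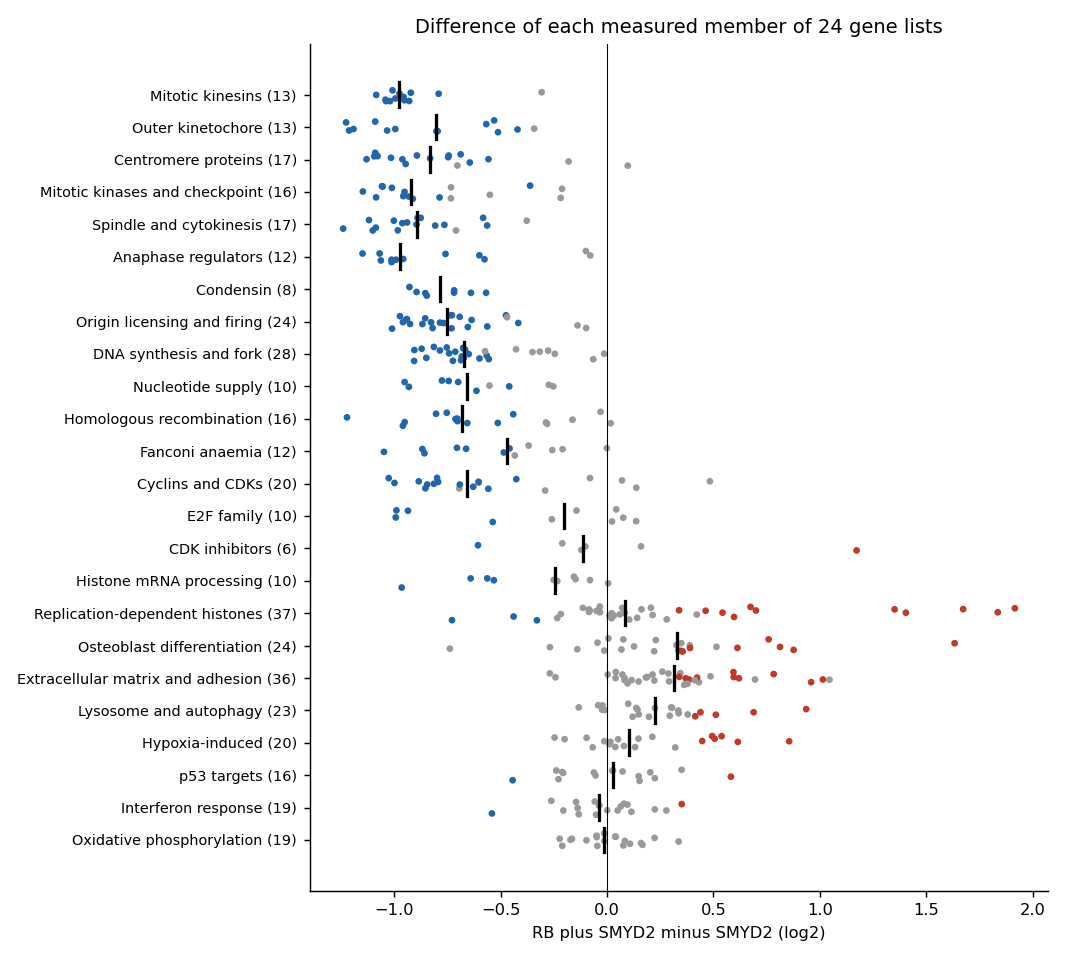
Difference between RB plus SMYD2 and SMYD2 alone (horizontal axis, log2) for each measured member of 24 gene lists (vertical axis, number measured in brackets). Points are genes, red if they rose, blue if they fell and grey if they did not pass, with a random vertical offset, and black bars are list medians, which run from -0.97 for kinesins to 0.33 for osteoblast genes.

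Of the osteoblast genes 8 of 24 rose (33.3%), and of the matrix and adhesion genes 10 of 36 (27.8%), with 0 falling in either list. Over all genes 3.32% rose. OMD, osteomodulin, a keratan sulphate proteoglycan of mineralised tissue, read 6.21, 5.33, 6.05 and 6.65 with RB and 4.06, 4.64, 4.45 and 4.57 without. It rose 3.10-fold, by 1.63 ± 0.21 (limma adjusted p = 0.00266), least on array 3. COL1A2, a chain of type I collagen, read 12.46, 11.87, 10.97 and 11 against 11.86, 11.21, 9.86 and 9.85. Its groups overlapped, since arrays 1 and 3 of both were far brighter than arrays 4 and 5, but each pair rose and the blocked difference was 0.88 ± 0.11 (limma adjusted p = 0.00261). It did not pass without the block. SPARC, osteonectin, read 11.87, 11.88, 11.66 and 11.80 against 11.24, 11.26, 10.78 and 10.69 and rose by 0.81 ± 0.10 with no overlap. TNFSF11, which encodes the osteoclast signal RANKL, rose by 0.76 ± 0.16, but not without the block. Of 24 osteoblast genes 8 rose and 0 fell, with a median of 0.33.

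SPP1, the gene of osteopontin, read 5.62, 5.64, 5.61 and 5.996 with RB and 4.78, 5.51, 5.46 and 5.56 without. It was higher in 4 of 4 pairs, at 0.39 ± 0.12, and did not pass (limma adjusted p = 0.0975). SMYD2 array 1 was the lowest of the 8 and RB array 5 the highest. Only 1 of its 2 probe sets was higher. Without pair 4, 4 of the 24 osteoblast genes rose, without pair 5, 3, and without the block, 4. Over all 19775 genes these fits called 246, 157 and 269 higher.

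Of 36 genes of extracellular matrix and adhesion 10 rose and 0 fell, with a median of 0.31. COL6A2 and COL6A1, chains of type VI collagen, rose by 1.01 ± 0.18 and 0.78 ± 0.12, and COL12A1 by 0.96 ± 0.17, the last not without the block. THBS1, thrombospondin, read 8.53, 9.86, 9.17 and 9.59 with RB and 5.86, 8.87, 9.03 and 9.20 without. It had the largest difference of the list, 1.04 ± 0.34, and did not pass (limma adjusted p = 0.105). Much of the difference lay in pair 1, where SMYD2 array 1 was far below the others. Among the alternative fits, THBS1 passed only in that without pair 1. Without the pair 1, 3, 4 or 5, 20, 4, 6 and 3 of the 36 rose, and without the block 4. Over all 19775 genes these fits called 1253, 209, 246, 157 and 269 higher.

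The 12 largest increases also held genes outside the lists. SLC16A4, a monocarboxylate transporter family member, read 6.76, 6.68, 6.28 and 6.55 with RB and 5.17, 5.27, 4.39 and 4.64 without. It rose 3.24-fold, by 1.70 ± 0.10 (limma adjusted p = 0.000796). PTGES, a prostaglandin E synthase, read 9.93, 9.39, 9.56 and 9.67 against 8.46, 8.30, 8.24 and 8.13, and CLU, the secreted chaperone clusterin, read 10.31, 10.05, 10.45 and 10.37 against 9.12, 9.01, 8.80 and 8.86. They rose by 1.36 ± 0.10 and 1.35 ± 0.12, each with a gap between the groups wider than the range within either. IGDCC4, a surface protein of the immunoglobulin superfamily, rose by 1.32 ± 0.20 from 7.84, 7.58, 6.84 and 6.88 to 8.55, 8.41, 8.67 and 8.80. SCARA5, a ferritin receptor, read 9.06, 8.66, 8.55 and 8.42 against 8.22, 7.89, 6.45 and 6.31. It rose by 1.45 ± 0.23, but SMYD2 arrays 1 and 3 lay far above SMYD2 arrays 4 and 5, and it did not pass without the block.

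Of the large decreases outside the cell cycle lists, C1QTNF2, a secreted protein of the C1q and TNF-related family, read 7.30, 7.47, 7.20 and 7.13 with RB and 8.71, 8.35, 8.23 and 8.44 without, and fell by 1.16 ± 0.11. EP300-AS1, a noncoding RNA antisense to EP300, read 4.85, 4.86, 4.58 and 4.80 against 6.16, 5.82, 5.96 and 5.83, and fell by 1.17 ± 0.10 at a low level. The arrays of both genes did not overlap.

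Of 23 genes of lysosome and autophagy 5 rose (21.7%, against 3.32% of all genes) and 0 fell, with a median of 0.23. WIPI1, an early autophagosome protein, rose by 0.94 ± 0.12, LAMP2, a lysosomal membrane protein, by 0.69 ± 0.11, CTSB, cathepsin B, by 0.51 ± 0.13 and BECN1, of the autophagy-initiating kinase complex, by 0.44 ± 0.09. Of 20 hypoxia-induced genes 6 rose (30%) and 0 fell, with a median of 0.11. STC2, the secreted stanniocalcin, rose by 0.86 ± 0.10, NDRG1 by 0.61 ± 0.08, P4HA1, a collagen prolyl hydroxylase, by 0.54 ± 0.08 and DDIT4, an mTOR inhibitor, by 0.51 ± 0.11. P4HA1, DDIT4 and CTSB did not pass without the block. Without the pair 1, 3, 4 or 5, 10, 2, 2 and 2 of the lysosome genes and 6, 3, 4 and 2 of the hypoxia genes rose. Over all 19775 genes these fits called 1253, 209, 246 and 157 higher.

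Programmes often tied to RB outside the cycle gave small counts. The shares of the senescence and p53 lists lay above the 7.46% of all genes that passed. Of 20 secreted factors of senescence 3 (15%) rose, where 3.32% of all genes did, and 0 fell, with a median of 0.0016. With genes under a mean of 6 left out of the fit, 8 of the 20 remained. Of these 3 rose and 0 fell, with a median of 0.46. PLAU, urokinase, rose by 0.85 ± 0.10 (not without the block) and TIMP2 by 0.50 ± 0.06, while IGFBP5 and IGFBP4, which bind insulin-like growth factors, differed by 1.01 ± 0.27 and 0.55 ± 0.17 and passed only without pair 1 or with array weights. Of 16 p53 targets ZMAT3 rose by 0.58 ± 0.08 and DDB2, a DNA damage sensor, fell by 0.44 ± 0.10, which is 12.5% of the list, around a median of 0.03. SAOS cells lack p53. Of 9 apoptosis genes linked to E2F 0 passed, among them APAF1, the scaffold of the apoptosome, at -0.30 ± 0.10, BCL2L11 at -0.38 ± 0.15 and CASP8 at 0.19 ± 0.11.

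The shares of promoters with each element differed between the lists that fell. Of 15384 tested genes with a promoter entry, 2622 held an E2F match, 11.9% a CHR match, 36.1% a CCAAT match and 8.76% a TATA match. Over all 27305 genes with an entry 13.1%, 15.4% and 35.7% held E2F, CHR and CCAAT, and 3264 genes held TATA. Among the genes tested that did not pass, 16.3% held an E2F match and 11.5% a CHR match. Among 684 genes that fell, 35.2% held an E2F match, 21.8% a CHR match, 46.6% CCAAT and 4.82% TATA. Among 529 that rose the shares were 14.6%, 11.3%, 35.0% and 9.45%, close to those of all tested genes. Of 38 genes that fell by at least 1, 34.2% held E2F, 47.4% CHR, 68.4% CCAAT and 2.63% TATA. Of 31 that rose by at least 1, 16.1% held E2F, 22.6% CHR, 38.7% CCAAT and 22.6% TATA. The CHR share of these 31 was thus near that of all genes that fell.

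Within the lists, an E2F match stood in 18 of 24 promoters of DNA synthesis genes and in 13 of 20 of origin genes, where CHR stood in 0 and 1. In homologous recombination genes it was 8 of 14 with E2F and 0 with CHR. CHR was found in 11 of 14 spindle genes, 9 of 13 kinesin genes and 5 of 7 condensin genes, with E2F in 5, 4 and 2. Outer kinetochore genes had both kinds, each in 6 of 12. Of 35 promoters of replication-dependent histone genes 31 held CCAAT and 25 TATA, H2BC4 among them and H4C8 not. In the same 35 an E2F match stood in 14 and a CHR match in 11. Both shares lay above the 35.2% and 21.8% of all genes that fell, although more of these histone genes rose than fell. A match is a run of letters and not a tested site, and no match says only that these letters are not in this window.

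The size of the response differed between pairs for the cell cycle lists. RB1 differed by 1.01, 1.31, 2.26 and 2.70 in pairs 1, 3, 4 and 5. The mean of the 13 kinesin genes differed by -0.60, -0.67, -1.22 and -1.20, and that of the 17 spindle genes by -0.57, -0.63, -1.13 and -1.18. For origin genes the differences were -0.53, -0.55, -0.90 and -0.85, and for DNA synthesis genes -0.37, -0.49, -0.77 and -0.76. The replication-dependent histones differed by 0.21, 0.15, 0.40 and 0.41. Pairs 4 and 5 had the larger differences in each of these lists and in RB1, while the osteoblast list gave 0.33, 0.17, 0.33 and 0.37. In RB minus control RB1 differed by 1.16, 0.94, 1.84 and 0.94, most in pair 4 and least in pair 5, while kinesin genes differed by -0.56, -0.71, -0.83 and -0.77 and spindle genes by -0.49, -0.54, -0.78 and -0.73, again most in pairs 4 and 5. The replication-dependent histones gave 0.22, 0.30, 0.16 and 0.21, with the larger values in pairs 1 and 3. Whether the RB1 level had a part in this was not tested.

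**Figure D4:**
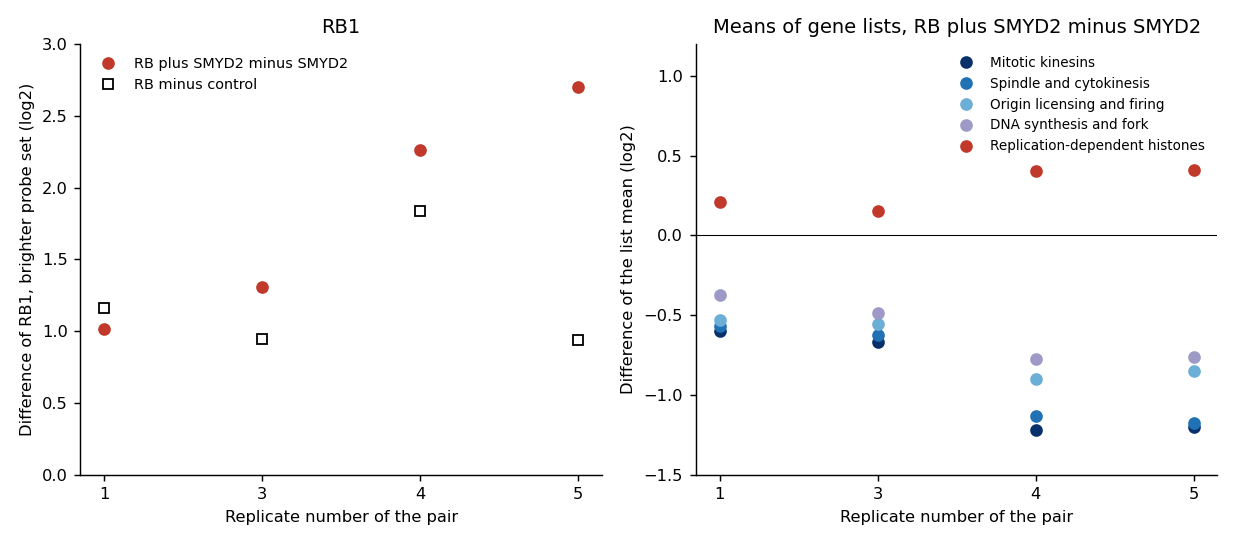
Left, the difference of the brighter RB1 probe set in each pair (log2) by replicate number, filled for RB plus SMYD2 minus SMYD2 and open for RB minus control. Right, the difference of the mean of 5 gene lists in the same pairs, RB plus SMYD2 minus SMYD2. Each point is 1 pair, and pairs 4 and 5 lie farther from 0 than pairs 1 and 3 for RB1 with SMYD2 and for each list shown.

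The response was set beside that to RB in cells without SMYD2, the same contrast on the other 8 arrays. Nearly all genes that passed on the SMYD2 background had the same direction in both. Fitted the same way, RB minus control gave 1546 genes (7.82%), 795 higher (4.02%) and 751 lower (3.8%), of which 19 rose and 1 fell by at least 1. The untransfected control means that this contrast also holds the effect of transfection. The comparisons share no array. In both, 1010 genes passed in the same direction, which is 68.5% of the 1475 and 65.3% of the 1546, and 0 passed in opposite directions. Of the 1475, 1471 (99.7%) had the same sign without SMYD2. Across all 19775 genes the differences correlated at r = 0.807, a description only, since genes are not independent and all arrays lie in 1 table.

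The cell cycle lists had larger medians on the SMYD2 background. Of the 751 genes that fell with RB alone, 622 (82.8%) had a larger fall with SMYD2, and of the 795 that rose, 457 (57.5%) had a larger rise. The kinesin median was -0.97 with SMYD2 and -0.72 without, the outer kinetochore -0.80 and -0.57, the spindle -0.89 and -0.65, origins -0.75 and -0.52, and DNA synthesis -0.67 and -0.48. By pair this was uneven. Kinesin means in pairs 1 and 3 were -0.60 and -0.67 with SMYD2 and -0.56 and -0.71 without. DNA synthesis means in pair 1 were -0.37 and -0.38. For the outer kinetochore, spindle and origin lists the fall was larger with SMYD2 in every pair. The medians of the osteoblast list were 0.33 and 0.18, and those of the matrix list 0.31 and 0.22. RB1 itself differed by 1.82 ± 0.24 with SMYD2 and by 1.22 ± 0.14 without. The part of the RB1 level in the larger differences was not tested.

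No gene passed the test of the difference between the responses, the interaction over all 16 arrays. Limma called 0 of 19775, with 786 (3.97%) at an unadjusted p under 0.05, a smallest adjusted p of 0.993, and 0 in each alternative run, with or without the block. This does not show that the responses were alike. SPC24 had an interaction of -0.55 ± 0.13, CENPM -0.52 ± 0.14, SKA1 -0.51 ± 0.17 and CKS2 -0.33 ± 0.08, all with a larger fall where SMYD2 was present. SPC24, CENPM and SKA1 were picked among the 12 largest decreases with SMYD2, and SPC24 and CKS2 by a small interaction p. Such choices favour large interactions, so the shared direction of these genes cannot speak for the background. For SPARC and CCNB1 the differences were nearly equal, 0.81 ± 0.10 against 0.81 ± 0.07 and -0.69 ± 0.22 against -0.70 ± 0.06. The value of CCNB1 with SMYD2 depends on pair 1, where SMYD2 array 1 stood apart. Its pairs 1, 3, 4 and 5 differed by 0.386, -0.871, -1.215 and -1.076. SPP1 differed by 0.39 ± 0.12 with SMYD2 and 0.83 ± 0.08 without, an interaction of -0.44 ± 0.20. The 5 genes with the smallest interaction p were CPLX2 (0.57 ± 0.12), PSTPIP2 (-0.61 ± 0.14), UCP3 (0.50 ± 0.11), SPC24 and CKS2.

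**Figure D5:**
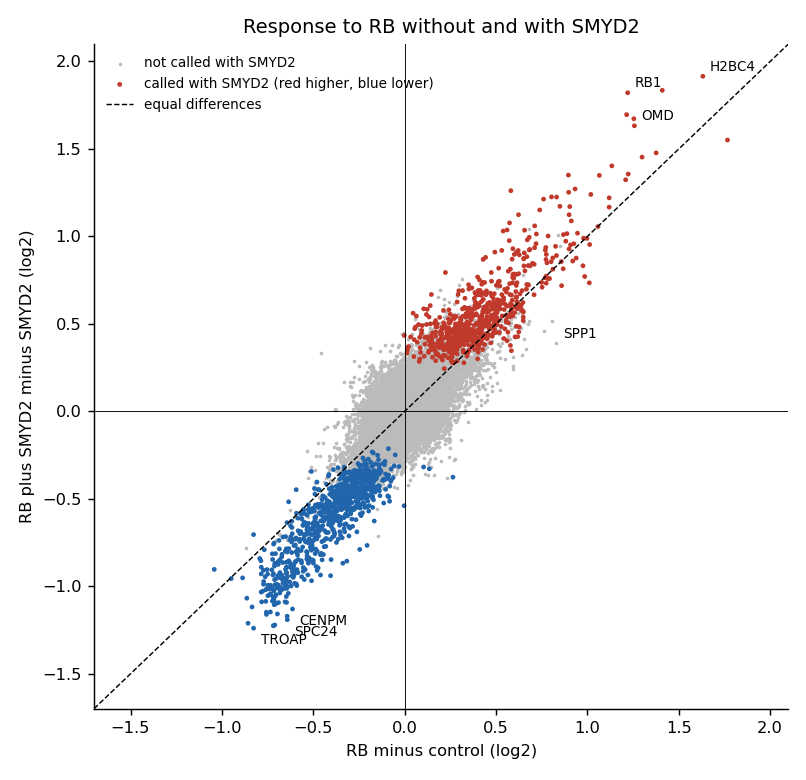
Difference made by RB without SMYD2 (horizontal axis, RB minus control, log2) and with it (vertical axis, RB plus SMYD2 minus SMYD2, log2) for 19775 genes. Each point is a gene, coloured where it passed with SMYD2 (red higher, blue lower), and the dashed line marks equal differences. Most blue points lie below the line, TROAP at -0.83 and -1.24 among them. Blue points were picked by their value on the vertical axis, which itself favours that side. SPP1 lies to the right of the line at 0.83 and 0.39.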

How the data were processed

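RNA was read on 16 Affymetrix U133 Plus 2.0 arrays, 4 for each group. The authors deposited log2 signals for 54675 probe sets, made with RMA per the submitters' processing notes (version and the set of arrays normalized with each other: not given in the sources used here). RMA has no detection call, and 4 arrays per group limit the precision.

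By the platform annotation 41097 probe sets had 1 symbol, 1801 several and 11777 none. For each of 19775 genes the probe set brightest on average over the 16 arrays was kept. limma 3.58.1 in R 4.3.3 (lmFit, eBayes with a trend) was fitted to the 8 arrays with the replicate number as a fixed block, two-sided, with Benjamini-Hochberg adjustment over all genes and a threshold of 0.05. RB minus control was fitted likewise, and the interaction over all 16 arrays. The labels do not say what a replicate number marks. Deviations from the group means of same-numbered arrays correlated at 0.436, 0.492, 0.200 and 0.348 for numbers 1, 3, 4 and 5, so the numbers were taken as pairs. The fit was tested on simulated data. The 44 gene lists are described by counts and medians, with no set test.

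Named genes are a fixed set of RB, E2F and cell cycle genes, the 12 largest increases and 12 largest decreases that passed without overlap between groups, the 4 members of each discussed list with the largest difference, all members of lists of at most 8 genes, and the 5 genes with the smallest interaction p. Of the 165 genes so named, 131 passed. The members and lists were chosen with earlier results of these data known. Promoters are from RefSeq and matched 15384 tested genes by symbol. Alternatives covered the block, the arrays in the fit, scaling, the choice of probe set, dim genes, array weights, the trend and each replicate left out. The plots were made with matplotlib 3.10.9.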

Additional observations from a re-analysis of the deposited data

Results flagged for a closer look

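In 6 of 108 checks of a group of 4 arrays, 1 array stood far from the other 3, and chance gives about 1 in 20. E2F2 read 7.99 on RB plus SMYD2 array 5, against 8.26 to 8.31 on the other arrays of that group. CCNB1 read 10.17 on SMYD2 array 1, against 11.47 to 11.59. SPP1 read 5.996 on RB plus SMYD2 array 5, against 5.61 to 5.64, and 4.78 on SMYD2 array 1, against 5.46 to 5.56. SKA1 read 8.36 on SMYD2 array 3, against 8.65 to 8.70. MND1 read 8.28 on RB plus SMYD2 array 3, against 7.90 to 7.95.

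In 3 of the named genes every pair moved one way with RB on the SMYD2 background and every pair the other way without it. CPLX2, PSTPIP2 and UCP3 were named only for a small interaction p. That choice favours opposite directions, which therefore cannot speak for an effect of the background. CPLX2 differed by 0.29 with SMYD2 and by -0.28 without, an interaction of 0.57. PSTPIP2 differed by -0.38 and 0.23, an interaction of -0.61. UCP3 differed by 0.17 and -0.33, an interaction of 0.50. Limma's adjusted p was 0.993 for each, so the difference between the backgrounds did not pass.

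Probe sets that name no single gene were tested apart. Of 1801 probe sets with several symbols, 62 (3.44%) passed the same limma test, 27 of them higher and 35 lower. Of 11777 with no symbol, 122 passed, 60 higher and 62 lower (1.04%).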

How the results depend on the processing

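The number of genes called depended on the block, on the arrays in the fit and on single pairs. Without the replicate block 748 genes passed, 269 higher and 479 lower. With all 16 arrays and the block 2812 passed, 1310 higher and 1502 lower. With array weights 2766 passed, 1425 higher and 1341 lower. Averaging the probe sets of a gene left 410 higher. Leaving out each replicate number in turn gave 420 to 2496 genes, 157 to 1253 of them higher and 263 to 1243 lower. A left-out array also takes its partner from a blocked fit, so arrays were left out as pairs. RB minus control gave 687 genes without the block, 585 with all 16 arrays and no block, 1017 with averaged probe sets and 503 to 1790 with a replicate number left out. RB1 differed by 1.53 to 2.09 with a number left out, where 3 against 3 arrays cannot give an exact permutation p below 0.1. Centring, a repeated quantile normalization, the filter on dim genes and the fit without a trend left the total within 1.5 times. Of the 131 named genes that passed, 86 passed under every alternative and 93 without each replicate number, and 0 changed direction. Among the named genes that did not pass, the sign turned in 6, and none of these values passed. With a replicate number left out, CDKN1C ranged from -0.080 to 0.46, L3MBTL1 from -0.061 to 0.057 (0.0068 without 5), LEMD3 from -0.039 to 0.065, LMNA from -0.031 to 0.034 (0.0093 without 1) and MSH3 from -0.035 to 0.15. With averaged probe sets L3MBTL1 read 0.0019, MSH3 -0.010 and PMS1 -0.11. With array weights L3MBTL1 read 0.019 and LMNA 0.0023, and with repeated quantile normalization LEMD3 read 0.017 and LMNA 0.0081. The cause was not tested. Of the 572 list medians under alternatives, 26 moved by more than the spread, and among lists with a median of at least 0.2 in size 0 changed sign. Genes under a mean of 6 (11832 of 19775 lay above it) may be at background, where differences are understated.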

Other observations

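In the lists not described above few genes passed, but several shares lay above the 7.46% of all genes that passed. Of 16 glycolysis genes 2 rose and 1 fell (18.8%), with a median of -0.04, and of 19 oxidative phosphorylation genes 0 passed, with a median of -0.01. Of 12 cholesterol synthesis genes 1 rose and 1 fell (16.7%), and of 19 interferon response genes likewise 1 and 1 (10.5%). Of 13 TGF-beta targets 1 rose. Of 15 genes of ribosome biogenesis 1 fell, FBL, which encodes fibrillarin, by 0.73 ± 0.07, named after its value was seen. Of 23 genes induced by unfolded proteins or amino acid shortage 2 rose and 1 fell (13%). Without pair 5, 1 of the glycolysis genes passed and 0 of the cholesterol, interferon and unfolded protein genes. HERPUD1, a gene of endoplasmic reticulum degradation, rose by 0.54 ± 0.08, CHAC1, which degrades glutathione, by 0.50 ± 0.11, and PHGDH, the first enzyme of serine synthesis, fell by 0.57 ± 0.09. DNAJC3 differed by 0.46 ± 0.21 and did not pass (limma adjusted p = 0.251).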
